A study of Mus musculus with 72 samples.

Results

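Glutamine synthetase (Glul) and 9 further genes that mark astrocytes were followed in RNA-seq counts from the suprachiasmatic nucleus (SCN), the central clock of the hypothalamus, and from the liver of the same study. The 10 genes, Glul, Slc7a10, Kcnj10, Slc1a2, Slc1a3, Gfap, Aqp4, Agt, Fam107a and Gja1, were taken by symbol. Each had 1 row among the 15759 genes of the SCN table and 1 among the 22823 genes of the liver table. All 10 passed the low-count filter in SCN and 9 did in liver, where Slc7a10 was left with too few counts for a test.

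The study asked how a diet without methionine and choline changes daily gene expression in both tissues. C57BL/6 mice ate that diet (MCD, TD.220158) or an isocaloric control diet (TD.220157) for 11 days. The first 10 days had a light-dark cycle, and the last was spent in constant darkness. Tissue was taken every 4 h at 6 circadian times (CT), CT0 through CT20. The 12 groups of diet and time each held 3 libraries per tissue, 2 from males and 1 from a female, so 36 libraries per tissue, 18 per diet. Mice were killed at each time, so the course of a tissue over the day is drawn from different animals. The SCN was cut by laser from stained brain sections, and the liver piece came from the left lobe. The protocol text names male mice only, whereas the sample labels name 12 females per tissue, and the sample labels were followed.

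Astrocytes clear transmitter from the space around synapses. Slc1a3 (GLAST) and Slc1a2 (GLT-1) take up glutamate, Glul joins it with ammonia to make glutamine that is passed back to neurons, Slc7a10 (Asc-1) exchanges small neutral amino acids such as D-serine and glycine, Kcnj10 (Kir4.1) and Aqp4 (aquaporin-4) carry potassium and water, and Gja1 (connexin 43) couples the cells. In the SCN, astrocytes have clocks of their own and take part in timing through extracellular glutamate. In the liver, Glul and Slc1a2 are known from the hepatocytes around the central vein, and Agt (angiotensinogen) is a secreted product of hepatocytes.

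The promoters of the 3 members with the widest daily range in SCN are shown because these genes rose and fell together or in opposition. The windows are the 250 bases before the annotated start, from RefSeq on build GRCm38.p6, which differs from the build of the counts. Glul lies at chr1:153899679-153899928 on the plus strand. Slc7a10 lies at chr7:35186135-35186384 on the plus strand. Fam107a has an upstream start with the window chr14:8317608-8317857 and a downstream start with chr14:8309780-8310029, both on the minus strand. Capitals mark matches, on either strand, to 1 of 8 searched motifs, and bases are numbered back from the start.
Glul: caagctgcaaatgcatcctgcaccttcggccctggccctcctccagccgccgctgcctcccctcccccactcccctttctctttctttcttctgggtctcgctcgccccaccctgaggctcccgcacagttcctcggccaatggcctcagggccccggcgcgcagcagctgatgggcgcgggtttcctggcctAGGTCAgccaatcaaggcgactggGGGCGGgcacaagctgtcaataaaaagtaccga
Fam107a, upstream start: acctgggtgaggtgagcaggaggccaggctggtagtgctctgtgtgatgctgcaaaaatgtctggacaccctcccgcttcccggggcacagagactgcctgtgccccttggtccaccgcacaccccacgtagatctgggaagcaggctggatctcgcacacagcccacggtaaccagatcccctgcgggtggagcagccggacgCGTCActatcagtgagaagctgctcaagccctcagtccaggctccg
Fam107a, downstream start: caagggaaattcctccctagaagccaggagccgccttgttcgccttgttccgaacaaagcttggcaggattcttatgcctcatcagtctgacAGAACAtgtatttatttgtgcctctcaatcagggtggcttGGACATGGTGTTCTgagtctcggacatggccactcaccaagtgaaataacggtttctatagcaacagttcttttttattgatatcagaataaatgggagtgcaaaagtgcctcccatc
Slc7a10: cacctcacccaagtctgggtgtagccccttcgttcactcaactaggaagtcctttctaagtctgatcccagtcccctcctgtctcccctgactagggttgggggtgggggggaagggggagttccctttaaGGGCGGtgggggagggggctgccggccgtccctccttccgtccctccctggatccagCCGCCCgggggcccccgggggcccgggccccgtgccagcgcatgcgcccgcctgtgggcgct
The Glul window holds AGGTCA, the letters searched for as a ROR element, at -57 and the Sp1 box GGGCGG at -33. Bases flanking AGGTCA were not part of the search. AGGTCA was present in 14% of the 32851 windows of the same length and GGGCGG in 32.7%. The window of the downstream Fam107a start holds GGACATGGTGTTC at -118, a match to the palindromic glucocorticoid response element, which 0.387% of windows hold. It overlaps the glucocorticoid receptor half-site AGAACA (as TGTTCT) at -110, and a second AGAACA stands at -158. AGAACA was in 16.1% of windows. The upstream Fam107a window holds the cyclic AMP response element core TGACG (as CGTCA) at -46, a motif in 17.8% of windows. The Slc7a10 window holds GGGCGG at -119 and, as CCGCCC, at -62. The remaining motifs, the E-box CACGTG (6.02% of windows), the D-box TTANGTAA (2.06%) and the TATA box TATAAA (12.4%), have no match in these 4 windows. A match describes letters and does not show binding. Windows were found for 9 members, and the 11 windows of these members hold no match to CACGTG or TTANGTAA.

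SCN libraries held 23.3 to 79.8 M counts each, with a median of 57.0 M, and liver libraries 52.6 to 86.7 M. Female SCN libraries were shallower, with a median of 44.3 M against 59.8 M in males. The 3 shallowest female libraries were those of the control groups at CT4 and CT20 and of the MCD group at CT4, with 27.5, 23.3 and 25.3 M counts. On the 3 leading components of the spread within groups, the farthest SCN library was the female control library at CT20 (2.85 and 3.56 SD) or at CT4 (4.35 SD). In liver it was control library a at CT8 on the first component (2.17 SD), MCD library 1 at CT4 on the second (2.62 SD) and MCD library 3 at CT0 on the third (1.96 SD). Of 30 other astrocyte markers, 29 were measured in SCN, each with a mean above 0.5 counts per 1e6 reads (CPM). Their summed level was 9264 to 12915 CPM on the control diet and 9037 to 12781 CPM on MCD. SCN neuron markers summed to 2165 to 4088 CPM. In liver 1 of the 10 SCN neuron markers, Lhx1, was analysed and had at most 0.224 CPM, and 22 of the 30 astrocyte markers were analysed.

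In SCN, Glul was the member with the highest level per kilobase of exon, with a mean on the control diet of 371 ± 94.3 CPM per kilobase (SD, n = 18). Agt followed with 134.5 ± 14.4, Slc1a3 with 109.5 ± 7.71, Kcnj10 with 93.9 ± 9.85, Gfap, the intermediate filament protein of astrocytes, with 81.0 ± 10.35, and Fam107a, an actin-binding stress response gene, with 69.0 ± 20.95. Slc1a2 stood at 53.0 ± 7.39, Aqp4 at 26.3 ± 3.26, Gja1 at 25.6 ± 2.23 and Slc7a10 at 14.6 ± 2.38. The neighbours Slc1a3 and Kcnj10, Kcnj10 and Gfap, Gfap and Fam107a, Fam107a and Slc1a2, and Aqp4 and Gja1 differed by less than their SDs together. On MCD the mean of Fam107a (86.2) came close to those of Gfap (87.3) and Kcnj10 (81.4), all in CPM per kilobase. All further levels are CPM per gene. In bulk tissue, fewer cells of a type and less RNA per cell cannot be told apart.

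**Figure D1:**
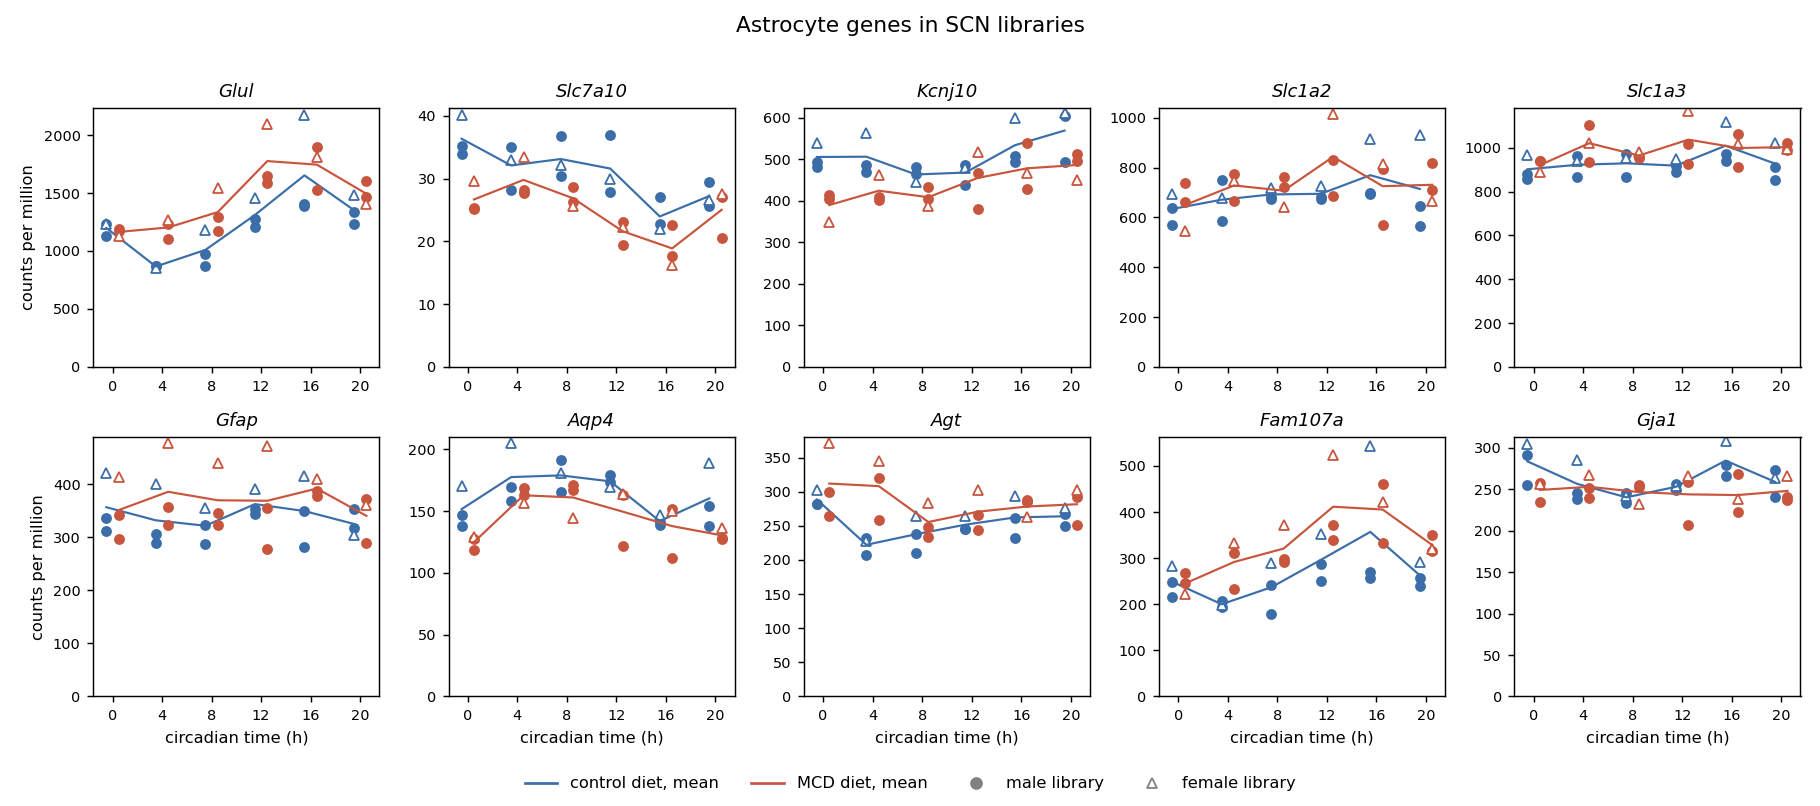
CPM of the 10 genes in each of 36 SCN libraries against circadian time; lines join the means of the 3 libraries of a group, filled circles are males and open triangles females. Glul and Fam107a are lowest early in the day and highest around CT12 to CT16, Slc7a10 is lowest at CT16, and the MCD means of Slc7a10, Kcnj10 and Aqp4 lie below the control means at all 6 times.

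On the MCD diet, Glul rose and Slc7a10 fell in SCN. The control libraries gave 856, 1234 and 2169 CPM of Glul (lowest, median and highest, n = 18) and the MCD libraries 1108, 1436 and 2094 CPM. The diets overlapped, but 5 control libraries lay below every MCD library, and the MCD mean was higher at 5 of 6 times. The means were 1232 ± 313 and 1453 ± 286 CPM (SD), a log2 difference of 0.25 ± 0.05 (SE) averaged over times, 1.19-fold, with an adjusted p of 0.0150 in edgeR's quasi-likelihood test. The 3 MCD libraries lay above the 3 control libraries at 2 of 6 times. At CT4 the control libraries had 872, 870 and 856 CPM, whereas those on MCD had 1230, 1108 and 1271. At CT0 the values were 1129, 1234 and 1233 CPM against 1175, 1187 and 1131 CPM, so the diets overlapped there.

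For Slc7a10 the control libraries gave 22.0, 30.2 and 40.1 CPM (lowest, median and highest) and the MCD libraries 16.3, 25.5 and 33.5 CPM. The MCD mean was lower at 6 of 6 times, and at 3 of them the 3 MCD libraries lay below the 3 control libraries. The difference was -0.31 ± 0.06 on the log2 scale, 1.24-fold lower on MCD, with an adjusted p of 0.0150. The largest gap was at CT12, where control libraries had 28.0, 37.0 and 29.9 CPM and MCD libraries 19.5, 23.2 and 22.3. Glul and Slc7a10 were the 2 members called at an adjusted p under 0.05, against 10 of all 15759 genes, 0.0635% (0.0381% higher, 0.0254% lower). The direction was alike in both sexes. In males (n = 12 per diet) Glul averaged 1149 ± 203 CPM on control and 1408 ± 249 on MCD, and in females (n = 6 per diet) 1397 ± 440 and 1543 ± 357 CPM. Slc7a10 averaged 30.8 ± 4.69 and 24.3 ± 3.64 CPM in males and 30.6 ± 6.14 and 25.8 ± 5.98 CPM in females. Without the 3 shallow female libraries, Glul was no longer called (0.24, adjusted p 0.0736) and Slc7a10 was (-0.33, adjusted p 0.0312). Without all libraries of replicate number 1 or of number 2, neither was called, and without number 3 Glul was and Slc7a10 was not (adjusted p 0.123). In the fit with the replicate number as a block neither was called. That fit also left out the 2 control males at CT8 that share a name, so that group held 1 library. The loss of the calls cannot be laid to the block alone.

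The other 8 members did not pass the test of diet in SCN, and 2 were close to it. Before adjustment 9 of the 10 members, all but Slc1a2, were under 0.05, as were 746 of 15759 genes. The members were chosen with earlier results of these data known. Neither this count nor the 2 calls can therefore show that astrocyte genes respond more than others. Fam107a ran through 179, 253 and 544 CPM in control libraries and 221, 326 and 524 in MCD libraries (lowest, median and highest), with no overlap at 3 of 6 times and a difference of 0.33 ± 0.07 (adjusted p 0.0593). Kcnj10 ran through 439, 490 and 611 CPM in control libraries and 349, 431 and 539 in MCD libraries. Its MCD mean was lower at 6 of 6 times, and the difference was -0.20 ± 0.04 (adjusted p 0.0543). Both passed in DESeq2, limma-voom and edgeR with library totals alone. Aqp4 averaged 164 ± 20.3 and 145 ± 19.6 CPM (-0.18 ± 0.05, adjusted p 0.164) and Agt 254 and 284 CPM (0.16 ± 0.04, adjusted p 0.104). The glutamate transporters differed by 0.09 ± 0.03 (Slc1a3) and 0.07 ± 0.06 (Slc1a2), Gfap by 0.10 ± 0.05 and Gja1 by -0.08 ± 0.03. In all, 6 members were higher and 4 lower on MCD, with a median log2 difference of 0.08 beside 0.00301 over all genes.

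At single times, 1 member passed. Agt at CT4 had control values of 208, 232 and 227 CPM and MCD values of 321, 259 and 345, which did not overlap. The log2 difference was 0.47 ± 0.09 (adjusted p 0.0414), where 0.0444% of genes were called. The call was lost without the 3 shallow libraries, 2 of which are CT4 libraries, and in 34 of 48 alternatives. Glul at CT4 had the same log2 difference of 0.47 with an adjusted p of 0.222. Neither edgeR nor DESeq2 called a member at the other 5 times, where 2 to 4 members were under 0.05 before adjustment and edgeR called at most 0.00635% of genes.

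Other gene groups give the setting of these differences. Of 29 other astrocyte markers tested, 13 were higher and 16 lower on MCD, with a median of -0.01. None passed in edgeR, and 5 were under 0.05 before adjustment. The pair with the largest differences was Prodh, proline dehydrogenase (0.37 ± 0.08, adjusted p 0.102), and F3, tissue factor (0.19 ± 0.06, adjusted p 0.434). None of 11 markers of reactive astrocytes passed (1 before adjustment), with 4 higher and 7 lower, the largest differences being those of Nes (-0.34 ± 0.12, adjusted p 0.633) and Aspg (0.28 ± 0.30, adjusted p 1). None of 21 genes of glutamate, glutamine and GABA handling passed (3 before adjustment; 8 higher, 13 lower, median -0.02), the largest being the vesicular glutamate transporter Slc17a7 (-0.96 ± 0.46) and the glutamine transporter Slc38a5 (-0.77 ± 0.54), both with an adjusted p of 1. Of 13 glucocorticoid-responsive genes, all 13 were higher on MCD (median 0.18) and 1 passed (7 before adjustment), the sulfotransferase Sult1a1 (0.80 ± 0.13, adjusted p 0.00747). All 10 oligodendrocyte markers were lower on MCD (median -0.16) and none passed (4 before adjustment). Their summed level was 1506 to 2550 CPM (median 1891) on control and 1279 to 2580 CPM (median 1687) on MCD. Of 6 markers of oligodendrocyte precursors 2 were higher and 4 lower (median -0.09), and none passed (4 before adjustment). Neuron markers were lower in 9 of 10 cases and none passed (1 before adjustment), with sums of 3370 to 4095 and 3069 to 4235 CPM. Erythrocyte markers, a sign of blood in the cut tissue, were lower on MCD in 5 of 5 cases, none passed (5 before adjustment), and they summed to 76.6 to 1518 CPM on control and 43.6 to 395 CPM on MCD. The part of this mixture in the member differences was not tested. Lrp3, which overlaps Slc7a10 on the opposite strand, averaged 88.3 CPM and differed by -0.05 with diet (adjusted p 1).

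**Figure D2:**
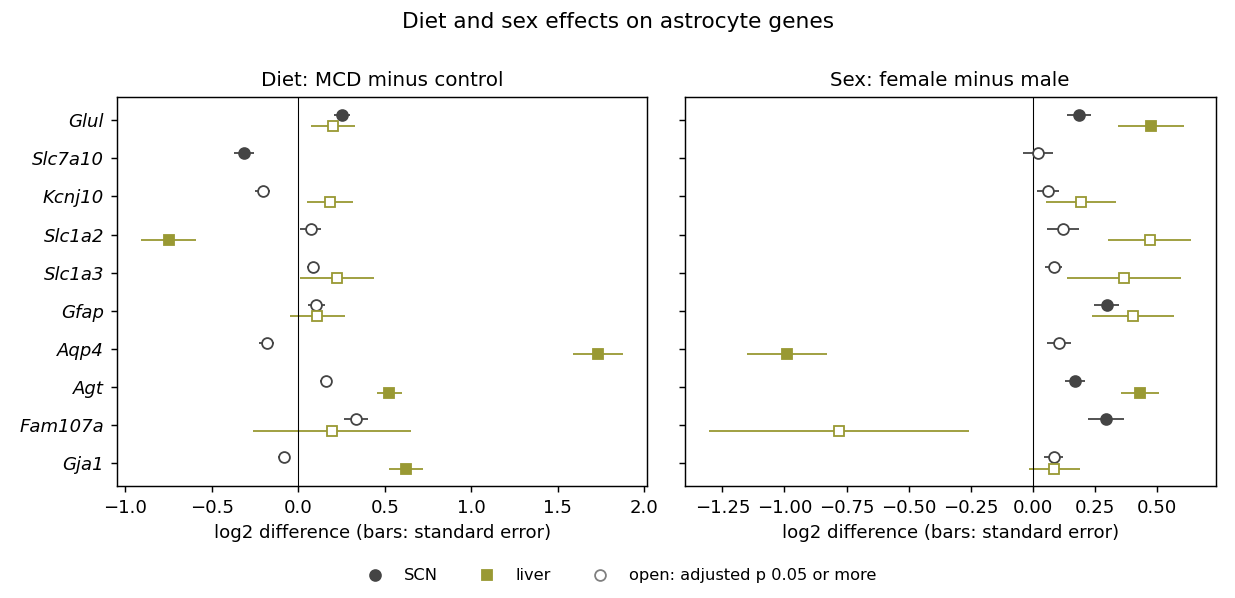
Log2 differences with standard errors for diet (MCD minus control, left) and sex (female minus male, right) in SCN (circles) and liver (squares); filled symbols have an adjusted p under 0.05. Diet moved Glul and Slc7a10 in SCN by 0.25 and -0.31, and Aqp4 in liver by 1.73; Slc7a10 was not tested in liver.

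In SCN, 6 members had a daily rhythm over both diets, 3 with a wide range and 3 with a narrow one. The test fits a 24 h cosine to the means of the 6 times, and the range is its distance from trough to peak. With 34.4% of all genes called, 6 of 10 members is a larger share, although their median range of 0.22 was below the 0.27 overall in the table. Because the members were chosen with earlier results known, this share is not a test of astrocyte genes. Glul ran through 0.70 ± 0.07 (log2, SE), 1.62-fold, with its peak at 15.8 ± 0.37 h (adjusted p 4.68e-09). On the control diet its mean was lowest at CT4, 866 ± 8.66 CPM (SD, n = 3), and highest at CT16, 1652 ± 448 CPM, where the female library had 2169 CPM and the males 1384 and 1403. The CT4 and CT16 libraries did not overlap. On MCD it was lowest at CT0, 1164 ± 29.3 CPM, and highest at CT12, 1775 ± 278 CPM, again without overlap.

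Fam107a followed nearly the same course, with a range of 0.64 ± 0.11 and a peak at 14.7 ± 0.63 h (adjusted p 3.25e-05). Its control means were lowest at CT4, with 193, 208 and 199 CPM, and highest at CT16, with 269 and 258 CPM in the males and 544 in the female. The MCD means went from 244.5 ± 22.7 CPM at CT0 to 412 ± 98.6 CPM at CT12. Slc7a10 ran the other way, with a range of 0.51 ± 0.08 and a peak at 3.75 ± 0.59 h (adjusted p 5.95e-05). Its mean was lowest at CT16 on both diets, 24.0 ± 2.74 CPM with the control diet and 18.9 ± 3.35 with MCD. The highest means were 36.4 ± 3.30 CPM at CT0 on control and 29.8 ± 3.17 CPM at CT4 on MCD. Slc7a10 libraries at these extremes did not overlap on either diet, and its antisense neighbour Lrp3 had a range of 0.06 (adjusted p 0.582).

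The other called rhythms were shallow. Aqp4 peaked at 7.61 ± 0.78 h with a range of 0.33 ± 0.07 (adjusted p 0.000801), Kcnj10 at 18.2 ± 1.04 h with 0.23 ± 0.06 (adjusted p 0.0120), and Agt at 21.7 ± 0.99 h with 0.20 ± 0.05 (adjusted p 0.0120). The Agt call was lost without the sex term (adjusted p 0.0623) and that of Kcnj10 without replicate number 2. Slc1a2, Slc1a3, Gfap and Gja1 did not pass, with ranges of 0.20, 0.08, 0.06 and 0.09 and adjusted p of 0.177, 0.315, 0.742 and 0.315. The ranges of the glutamate transporters were not tested against that of Glul.

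Within the diets, 3 members passed on control, where 15.1% of genes did, and 4 on MCD, where 16.1% did. Glul ranged over 0.80 ± 0.10 with a peak at 16.8 ± 0.45 h on control and over 0.66 ± 0.10 at 14.5 ± 0.55 h on MCD. Fam107a peaked at 15.75 ± 0.90 h on control and 13.7 ± 0.82 h on MCD. Slc7a10 peaked at 4.36 ± 0.96 h and 3.29 ± 0.72 h, and Aqp4 passed on MCD alone (0.37 ± 0.09, peak at 7.97 ± 0.99 h). The difference between the diets was tested directly, and no member passed, against 2 genes in all (0.0127%). Glul had the smallest p, 0.00635 unadjusted and 1 adjusted, and it was the 1 member under 0.05 before adjustment. DESeq2 likewise called none. On control, the Slc7a10 rhythm was not called without the male library 2 at CT4, the male library 1 at CT16 or the female library at CT16, nor without the 3 shallow libraries (adjusted p 0.0559). On MCD, that of Aqp4 was not called without either male library at CT8.

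**Figure D3:**
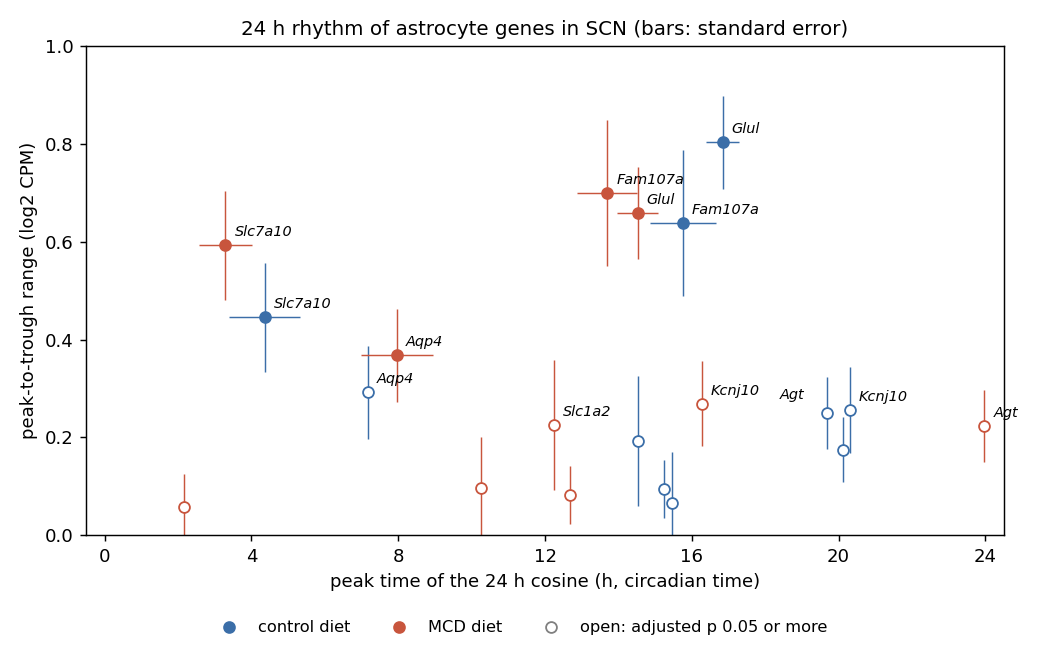
Peak time (horizontal, h) against peak-to-trough range (vertical, log2 CPM) of the 24 h cosine for each gene on each diet in SCN; bars are standard errors, drawn for the peak time of called rhythms only, and filled points have an adjusted p under 0.05. Glul and Fam107a lie together at 13.7 to 16.8 h with ranges of 0.64 to 0.80, and Slc7a10 lies at 3.29 to 4.36 h.

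Of the 29 other astrocyte markers, 15 were rhythmic over both diets (median range 0.24). Among those with the smallest p were Atp1b2, a sodium pump subunit (0.55, peak 21.2 h), Gldc, of the glycine cleavage system (0.97, 6.95 h), the protease Htra1 (0.51, 20.6 h) and the growth factor receptor Fgfr3 (0.38, 14.4 h). Their peaks are spread over the day. In the glutamate, glutamine and GABA list 14 of 21 genes were rhythmic, among them Gad1 (0.44, 4.95 h) and Gad2 (0.34, 6.75 h), which make GABA, the glutamine transporter Slc38a3 (0.55, 4.07 h), Abat, which breaks down GABA (0.28, 21.7 h), and Got2 (0.35, 22.6 h). The peak of Slc38a3, which carries glutamine out of astrocytes, lay close to that of Slc7a10 and far from that of Glul. Among glucocorticoid-responsive genes 12 of 13 were rhythmic, led by the clock gene Per1 (2.37, 5.76 h), Tsc22d3 (1.19, 11.1 h), Klf9 (0.57, 9.48 h), Mt2 (1.07, 5.32 h) and Sgk1 (1.09, 10.8 h). Of 11 reactive markers 3 were, Hspb1 (1.38, 19.9 h), Vim (0.50, 0.148 h) and Stat3 (0.30, 7.40 h). Markers of other cell types were rhythmic too, in 9 of 10 cases for neurons, 9 of 10 for SCN neurons, 5 of 6 for ependyma, tanycytes or choroid plexus, 5 of 10 for microglia, 4 of 6 for oligodendrocyte precursors, 3 of 10 for oligodendrocytes and 2 of 10 for endothelium. Those of erythrocytes were in 4 of 5 cases, with a median range of 1.77. Their part in the members' rhythms was not tested.

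Female SCN libraries had higher levels of all 10 members, except that Slc7a10 was -0.0128 with library totals alone and -0.00301 without the 3 shallow female libraries, and 4 members passed the test. Gfap had 278, 331 and 388 CPM in 24 males (lowest, median and highest) and 304, 412 and 479 CPM in 12 females, a log2 difference of 0.30 ± 0.05 (adjusted p 0.00151). The female library was the highest of its group in 10 of 12 groups. Agt (0.17 ± 0.04, adjusted p 0.00815), also highest in females in 10 of 12 groups, averaged 258 ± 27.7 CPM in males and 291 ± 38.5 in females. Fam107a (0.30 ± 0.07, adjusted p 0.0124) averaged 278 ± 63.1 and 346 ± 107 CPM, and Glul (0.19 ± 0.05, adjusted p 0.0156) 1278 ± 258 and 1470 ± 390 CPM. The sexes overlapped for each of these genes. Of all genes 9.89% were called, 4.91% higher and 4.98% lower in females (773 of 1558 calls higher). With library totals alone 584 of 2045 calls were higher in females. Slc7a10 did not pass (0.02 ± 0.06, adjusted p 0.863).

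Of the other astrocyte markers 26 of 29 were higher in females and 10 were called, and 5 were called without the 3 shallow libraries. S100b (0.36 ± 0.06), Ndrg2 (0.26 ± 0.05), the lipid carrier Apoe (0.23 ± 0.05), the glycolytic enzyme Aldoc (0.20 ± 0.04) and the claudin Cldn10 (0.25 ± 0.07) had the smallest p. Their summed level was 10569 to 12915 CPM in females and 9037 to 12125 CPM in males. Neuron markers were lower in 9 of 10 cases and 1 passed, Elavl4 (-0.18 ± 0.04, adjusted p 0.00775; 5 were under 0.05 before adjustment), with sums of 3069 to 4235 CPM (median 3521) in females and 3519 to 4095 CPM (median 3773) in males. Among SCN neuron markers 5 of 10 passed. Prokr2 (-0.44 ± 0.06, adjusted p 0.000138), Vipr2 (-0.19 ± 0.05), Rorb (-0.16 ± 0.04) and Six6 (-0.16 ± 0.05) were lower in females and Nms (0.28 ± 0.07) was higher. Of 6 markers of ependyma, tanycytes or choroid plexus 2 passed (5 were under 0.05 before adjustment), Rarres2 (0.46 ± 0.13, adjusted p 0.0277) and Ccdc153 (0.41 ± 0.13, adjusted p 0.0469), both higher in females, and the summed level had a median of 204 CPM in females and 159 CPM in males. Gad2 (-0.17 ± 0.05) and the vesicular GABA transporter Slc32a1 (-0.15 ± 0.04) were lower in females. The makeup of the cut tissue and the depth of the female libraries move with sex, and their part was not tested. In both tissues every female library carries replicate number 3 and no male does, so an effect of the number cannot be told apart from sex. Without the 3 shallow female libraries 1 member was called, Gfap (0.30, adjusted p 0.00464), while the differences of the other 3 stayed at 0.21 (Glul, adjusted p 0.0563), 0.18 (Agt, 0.0505) and 0.34 (Fam107a, 0.0565).

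Once diet, time and sex were removed, Glul and Fam107a still went up and down together from library to library. Over the 36 SCN libraries the deviations of log2 CPM from the group mean correlated with r = 0.930 and rho = 0.923 (permutation p 1e-05 for both, the smallest that 100000 permutations within groups can give, adjusted 9e-05 over 9 members). Without the 2 libraries farthest from the median, the female control library at CT16 and the female MCD library at CT20, r was 0.910. It was 0.944 on control, 0.916 on MCD, 0.918 in males and 0.946 in females. Slc1a3 came next (r = 0.610, rho = 0.594, adjusted permutation p 0.00680 and 0.0133), then Slc1a2 (r = 0.510, rho = 0.466, adjusted permutation p 0.0286 and 0.0662). Without those 2 libraries r was 0.571 and 0.445. For Slc1a3 r was 0.415 on control and 0.765 on MCD, and for Slc1a2 0.244 and 0.717.

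For Slc7a10 the correlation was negative and did not pass (r = -0.422, rho = -0.339, adjusted permutation p 0.115 and 0.218). For Kcnj10, Agt, Gja1, Gfap and Aqp4 r was 0.386, 0.215, 0.194, 0.134 and -0.0148, with adjusted permutation p of 0.115 to 0.939. The diets differed in r for some of these genes, a difference that was not tested. It was -0.00859 on control and 0.673 on MCD for Kcnj10, 0.569 and 0.0121 for Agt, -0.454 and 0.306 for Aqp4, and -0.281 and -0.549 for Slc7a10. Between other members the r values are given as a description. Slc1a2 went with Slc1a3 (r = 0.812) and Kcnj10 (0.722), whereas Slc7a10 went with Agt (0.533) and Gfap (0.509). Marker lists were averaged over their genes, each scaled to its own spread. Slc7a10 had r = 0.631 with the mean of the microglia markers and 0.523 with that of oligodendrocytes. Glul and Fam107a had r = -0.524 and -0.607 with that of SCN neurons. With the other astrocyte markers Glul and Fam107a had r = 0.459 and 0.525, and with the glucocorticoid-responsive genes 0.402 and 0.423. What part this mixture has in the correlations was not tested.

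**Figure D4:**
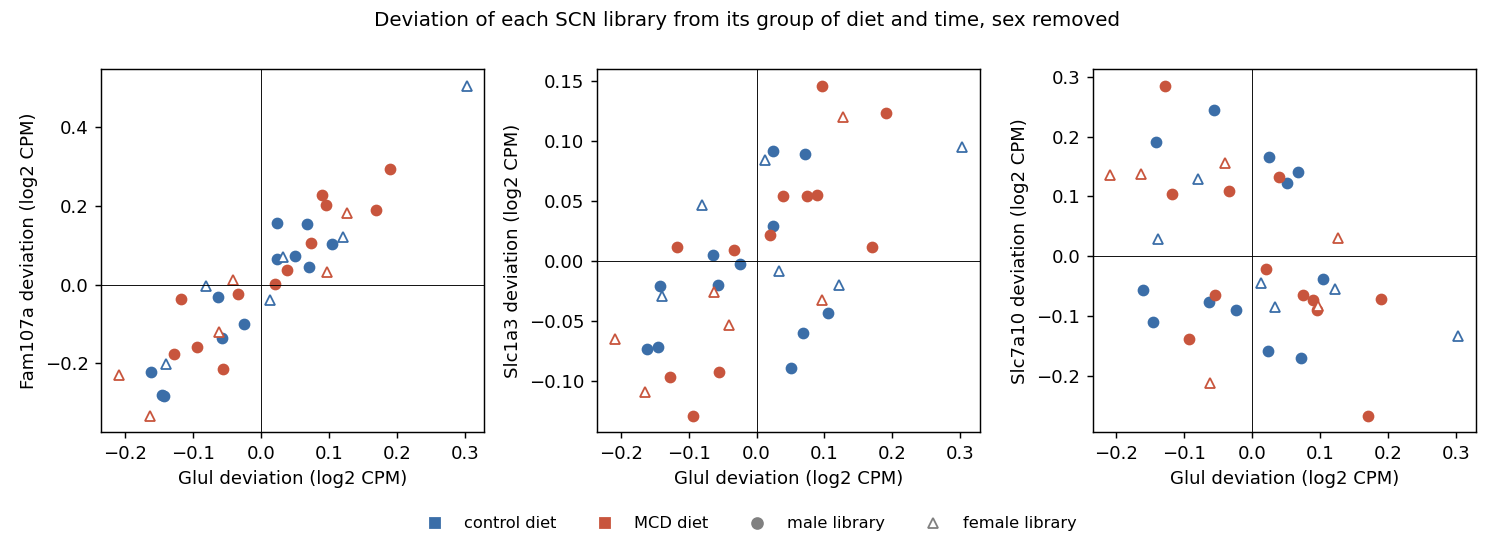
Each point is 1 SCN library; axes give its deviation in log2 CPM from the mean of its group of diet and time with sex removed, for Glul (horizontal) against Fam107a, Slc1a3 and Slc7a10 (vertical). The points for Fam107a lie along a line (r = 0.930), those for Slc1a3 scatter more widely (r = 0.610), and those for Slc7a10 fall with a wide scatter (r = -0.422).

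Outside the gene lists, the gene most like Glul in these deviations was Zcchc24 (r = 0.804 over 36 libraries), followed by Acot11 (0.783), Ppp1r9b (0.769), 2900052N01Rik (0.760), Folh1 (0.756), Tbc1d9b (0.749), Tns3 (0.749), Kctd12 (0.724), Fgf1 (0.724) and Gm13316 (0.719). No one of these 10 exceeded the r of Fam107a. The mean of the 10 members, each scaled to its own spread, was most like Gm28439 (r = 0.899), the mitochondrial transcripts mt-Co1 (0.887), mt-Atp8 (0.884), mt-Ty (0.871) and mt-Nd5 (0.864), Gm13340 (0.877), Asrgl1 (0.851), Gpm6b (0.849), Chpt1 (0.836) and Pals2 (0.835). The 36 SCN libraries differ in depth and were each cut from tissue, and the part of depth, of dissection and of mitochondrial RNA in the members' levels was not tested.

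The use of exons was tested in exon-bin counts, in which each gene is divided into stretches shared by the same transcripts. No member passed for diet, where 7 of 13219 genes (0.053%) did, or for CT12 to CT20 against CT0 to CT8, where 11 genes (0.0832%) did. For Glul, with 14 bins, the unadjusted p, combined over bins by Simes' method, was 0.950 and 0.672, and for Fam107a, with 8 bins, 0.904 and 0.671. The smallest unadjusted Simes p of a member was 0.164, for Slc1a3 by time. The gene-level F test of diffSpliceDGE called no member either, and Slc1a3 by time (unadjusted p 0.0107, adjusted 1) was the 1 member under 0.05 before adjustment. Among single bins, 1 of Slc1a3 by diet (unadjusted p 0.0193) and 4 of Slc1a3 by time (0.0109 to 0.0312) were under 0.05, each with an adjusted p of 1.

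In liver, 4 of the 9 members tested changed with diet. Aqp4 rose from 1.97, 6.99 and 19.5 CPM on control (lowest, median and highest, n = 18) to 12.1, 22.4 and 47.0 CPM on MCD. The 3 MCD libraries lay above the 3 control libraries at all 6 times, and the log2 difference was 1.73 ± 0.15, 3.33-fold (adjusted p 8.33e-10). Agt rose from 320, 422 and 745 CPM to 487, 677 and 865 CPM (0.53 ± 0.07, adjusted p 1.26e-06), without overlap at 2 times. Gja1 rose from 2.78, 3.54 and 6.70 CPM to 4.54, 5.85 and 9.73 CPM (0.62 ± 0.10, adjusted p 9.73e-06), without overlap at 4. Slc1a2 fell from 39.2, 124 and 242 CPM to 35.0, 77.2 and 149 CPM (-0.75 ± 0.16, adjusted p 0.000379), with all MCD libraries lower at 4 times. In this tissue 46.6% of genes were called (25.3% higher, 21.2% lower), so 4 of 9 is near the background. With library totals alone 10633 of 12173 calls were higher on MCD, against 5130 of 9426 here. The 4 members were called in each of the 48 alternatives. The liver libraries fell into 21 with 41.6 to 119 CPM of the mitochondrial transcript mt-Nd6 (library totals) and 15 with 414 to 925 CPM. This split moves with diet, with 8 control and 13 MCD libraries in the low kind and 10 and 5 in the high kind. These alternatives include a fit with this split and sex as covariates, in which Aqp4, Agt, Gja1 and Slc1a2 alone of the members were called.

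Glul in liver had control values of 306, 968 and 1395 CPM and MCD values of 511, 1056 and 1746, which overlapped at every time. The difference of 0.20 ± 0.13 did not pass (adjusted p 0.200). The lowest control value came from library a at CT8, which also had the lowest control value of Slc1a2. With library totals alone Glul was called (0.46, adjusted p 0.000378), and there the median of all genes was 0.27. Kcnj10 (0.19 ± 0.13), Slc1a3 (0.22 ± 0.21), Gfap (0.11 ± 0.16) and Fam107a (0.19 ± 0.46) did not pass, and the last 3 had means under 0.6 CPM. The fitted difference of Fam107a, averaged over times on the log2 scale, runs against its means of 0.424 CPM on control, where 1 library had 4.18 CPM, and 0.248 CPM on MCD. Slc7a10 had 45 counts in all 36 liver libraries together and was at 0 in 9 control and 14 MCD libraries.

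Of 15 pericentral genes besides Glul, which are expressed around the central vein, 5 rose and 2 fell on MCD, beside 25.3% higher and 21.2% lower among all genes. The amino acid transporter Slc1a4 (0.80 ± 0.22) rose. Of the targets or regulators of Wnt signalling in this list, Sp5 (0.70 ± 0.12), Axin2 (0.53 ± 0.12) and Znrf3 (0.34 ± 0.08) rose, and Notum (-0.33 ± 0.09), a secreted inhibitor, fell. Nkd1 (0.16), Lgr5 (0.13), Tbx3 (-0.06) and Rnf43 (-0.02) did not pass, with adjusted p of 0.109 to 0.917. Of 12 periportal genes, 8 fell and 1 rose, with Otc (-0.78 ± 0.07), Asl (-0.67 ± 0.08) and Cps1 (-0.54 ± 0.10) of the urea cycle and the glutaminase Gls2 (-0.61 ± 0.09) lower and Hsd17b13 (0.47 ± 0.08) higher. Summed levels were 1816 to 11746 CPM on control and 3905 to 11185 on MCD for pericentral genes, and 7693 to 15826 and 6781 to 11366 CPM for periportal genes. Markers of liver cells other than hepatocytes summed to 548 to 952 CPM on control and 631 to 1126 CPM on MCD. The part of these genes in the members' changes was not tested.

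**Figure D5:**
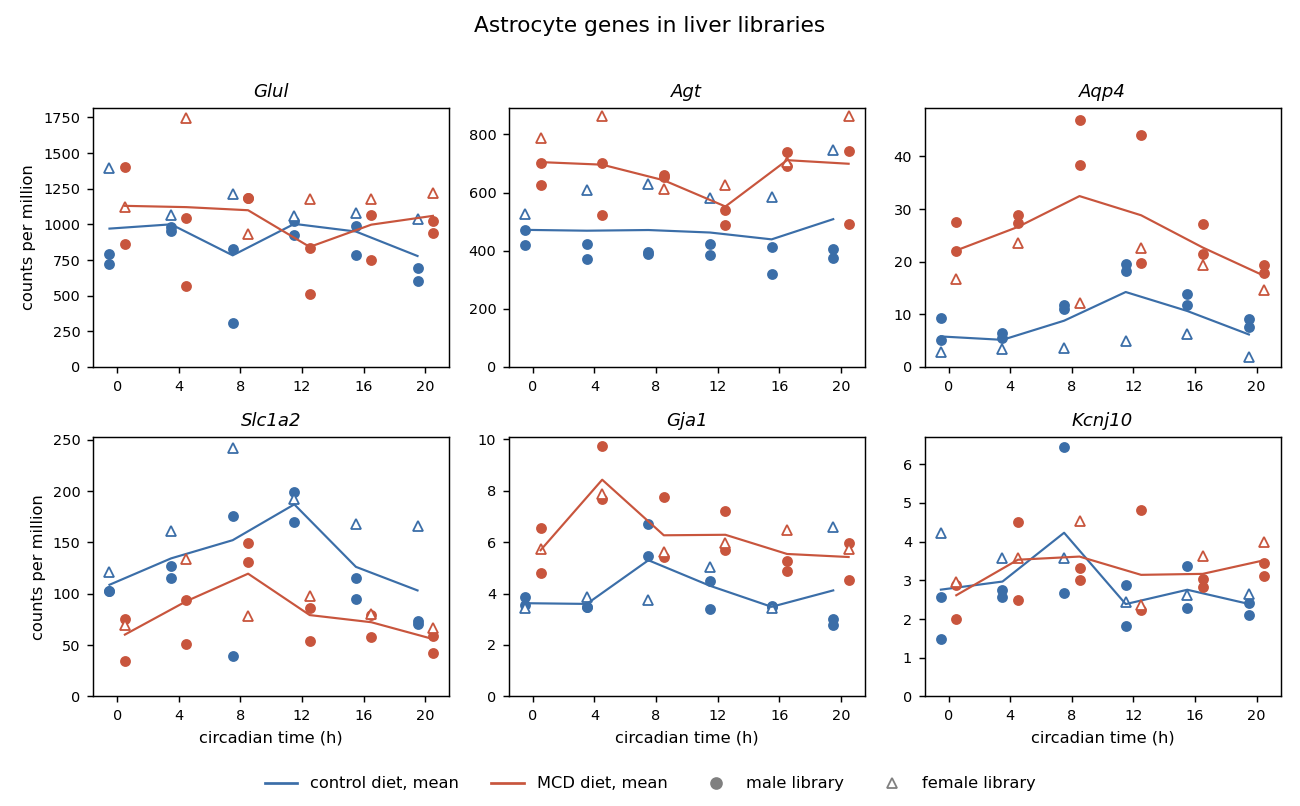
CPM of 6 of the genes in each of 36 liver libraries against circadian time, drawn as for SCN. All MCD libraries of Aqp4 lie above the control libraries of the same time, females have the lowest Aqp4 in 11 of 12 groups, and the rhythm of Glul did not pass the test.

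Daily rhythms of members in liver numbered 3 of 9 over both diets, with 37% of genes called. Aqp4 had a range of 0.87 ± 0.21 with a peak at 11.3 ± 0.94 h (adjusted p 0.00365) and Slc1a2 of 0.77 ± 0.25 with a peak at 9.21 ± 1.25 h (adjusted p 0.0112). Fam107a passed too, with a peak at 13 h (adjusted p 0.000418), but at very low counts. At CT12 the control libraries had 253, 35 and 38 counts of it and the MCD libraries 30, 72 and 23, and at CT0 the counts were 9, 0 and 3 and 10, 6 and 0. CT12 lay above CT0 in every library on both diets. Glul did not pass, with a range of 0.16 ± 0.19 (adjusted p 0.745). On control 3 members passed (Aqp4, Fam107a and Gfap) and 17.8% of genes, on MCD 1 (Fam107a) and 28.2% of genes. The Gfap call (adjusted p 0.0496) was lost in 32 of the 36 fits that left out 1 library, and that of Fam107a on MCD (adjusted p 0.0476) in 22. No member's rhythm differed between the diets, where 4.87% of genes did, although Aqp4 (unadjusted p 0.0170) and Gfap (0.0253) were under 0.05 before adjustment.

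Sex was associated with 3 members in liver, where 9.44% of genes were called (5.17% higher and 4.27% lower in females). Aqp4 was lower in females, with 1.97, 9.22 and 23.6 CPM (lowest, median and highest, n = 12) against 5.21, 18.8 and 47.0 CPM in 24 males, and the female library was the lowest in 11 of 12 groups (-0.99 ± 0.16, adjusted p 0.000113). Agt was higher in females (0.43 ± 0.07, adjusted p 0.000266), as was Glul (0.48 ± 0.13, adjusted p 0.0213), with 874 ± 240 CPM in males and 1186 ± 211 in females. The Glul call was lost without the female library of control CT0, CT8 or CT20 or of MCD CT4, where its adjusted p was 0.0504 to 0.0595.

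The diet effects of the tissues were compared in 1 fit of all 72 libraries over 14491 genes of both tables, a comparison added after seeing the data. The effect in liver exceeded that in SCN for Aqp4 (1.91 ± 0.15, adjusted p 5.43e-14), Gja1 (0.70 ± 0.10, adjusted p 3.27e-07), Agt (0.36 ± 0.08, adjusted p 0.000403) and Kcnj10 (0.39 ± 0.14, adjusted p 0.0238). It was lower for Slc1a2 (-0.83 ± 0.17, adjusted p 0.000173). The Kcnj10 call was lost without replicate number 1 (adjusted p 0.175), 2 (0.0605) or 3 (0.120), and that of Agt without number 2 (0.107). Among all genes 34.7% were called. For Glul the difference of -0.06 ± 0.14 did not pass (adjusted p 0.802). With library totals alone it was 0.10, and there the median of all genes was 0.171, against 0.0136 in the main fit. For Slc7a10, with its 45 liver counts, the difference of -1.64 ± 0.76 did not pass (adjusted p 0.0883). It was called without liver control library a at CT8 (-1.80, adjusted p 0.0441). The fit treats liver and SCN libraries as independent, although they may come from the same mice.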

How the data were processed

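RNA-seq libraries of SCN and liver were deposited as 1 table per tissue of raw counts per gene and as counts per exon bin for each sample. Trimmomatic, HISAT2, StringTie, DESeq2 and the build GRCm39 are named, with neither roles nor order, per the submitters' processing notes. The library kit selected poly(A) RNA and kept strand, per the labels' protocols. Sources used here do not give the counter, its strand setting or the annotation release. The deposited counts were used as they stand.

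Each tissue was fitted with edgeR 4.0.16 (R 4.3.3) over its 36 libraries, with TMM factors, a filter at a minimum count of 10, a mean for each of the 12 groups of diet and time, and sex as a term. Diet is the mean difference over 6 times, and rhythm is the cosine and sine of a 24 h period. Quasi-likelihood F tests were adjusted by Benjamini and Hochberg over all genes tested, with a threshold of 0.05. CPM values use TMM-scaled totals. The printed range and peak of members come from a cosine fit to log2 CPM (prior count of 2) and those of other genes from the edgeR coefficients. Deviations from group and sex were correlated with 100000 permutations within groups. Exon use was tested with edgeR's diffSpliceDGE. The labels number the 3 libraries of a group without saying that each is a different mouse, so p-values measure the spread between libraries. Alternatives were library totals alone, RLE factors, no filter, a minimum count of 100, no sex term, a replicate block, DESeq2 1.42.0, limma-voom (limma 3.58.1), leaving out libraries and, in liver, the kind of library (low or high mt-Nd6) as a term beside sex. In simulated data on the 15759 SCN genes, the diet test recovered 38 of 100 genes changed by 0.25 on the log2 scale. Of 100 changed by 0.5 it recovered 73. These genes were changed together, whereas 10 genes were called for diet in the SCN data. More true changes ease the adjusted threshold, so these shares do not give the power for the members.

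The members and gene lists were chosen with earlier results of these data known. All 10 members are named, as are the 10 genes most like Glul and most like the mean of the members. For a list described in a comparison, up to 5 called genes are named by smallest p, or else the 2 with the largest difference. Not every list is described in every comparison, such as glucocorticoid-responsive genes by sex in SCN. A gene that this rule would name is not reported here. Levels per kilobase use exon lengths of GENCODE M21. A pair of male control libraries at CT8 shares a name, and they are called a and b. Fits with a replicate block left them out. Exon bins of liver were not used here.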

Additional observations from a re-analysis of the deposited data

Results flagged for a closer look

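The effect of diet differed between the tissues for 5 members by the test of the difference itself. The liver minus SCN log2 difference was 1.91 ± 0.15 for Aqp4, which rose in liver (1.73) and was -0.18 in SCN. It was 0.70 ± 0.10 for Gja1 (0.62 in liver, -0.08 in SCN). For Agt, higher on MCD in both tissues, it was 0.36 ± 0.08. For Slc1a2 it was -0.83 ± 0.17 (-0.75 in liver, 0.07 in SCN). For Kcnj10 it was 0.39 ± 0.14, with neither effect called on its own (0.19 in liver, -0.20 in SCN). Adjusted p-values of edgeR's quasi-likelihood test ran from 5.43e-14 to 0.0238. The Kcnj10 call was lost without replicate number 1 (adjusted p 0.175), 2 (0.0605) or 3 (0.120), and that of Agt without number 2 (0.107).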

How the results depend on the processing

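In liver the diet calls of members held in the 48 alternatives, and in SCN the 6 rhythms over both diets were 5 or 6. The 2 SCN diet calls became 4 with library totals alone or limma-voom and 6 with DESeq2. They became 1 without the sex term and 1 without the 3 shallow female libraries. Neither stayed called with the replicate block, a fit that also left out the 2 control males at CT8 that share a name. The number over all genes, 10, was 48 with DESeq2, 19 with limma-voom, 6 without the sex term and 4 with the block. The block rests on replicate numbers that do not mark shared mice. In deviations from group means, same-numbered libraries had a median correlation of 0.0749 over 176 pairs (65 over 0.1). Different-numbered ones had -0.0363 over 352 (23 over 0.1), and numbers 1 and 2 alone, both male, 0.0453 over 110 same-numbered pairs. Of 34 libraries, 25 correlated best with their own number. Sex was not removed from these deviations and every number 3 is female, so these values cannot tell number from sex. The Agt call at CT4 (1) became 0 with library totals, limma-voom, the block, no sex term or without the 3 libraries, and 2 calls with DESeq2. The 4 sex calls in SCN became 1 without the 3 libraries, and 1558 calls over all genes became 186. In liver, 3 control rhythms became 1 with a minimum count of 100 or no sex term, and the 1 MCD rhythm became 2 (RLE factors, the block, DESeq2) or 0 (no filter, no sex term, limma-voom). The 3 correlations with Glul became 6 with group means kept. Directions turned for these uncalled values: SCN sex Slc7a10 -0.0128 (library totals) and -0.00301 (without the 3 libraries), liver minus SCN Glul 0.10 and Gfap 0.12 (library totals), Gfap 0.0302 (without liver control CT8 a), Fam107a 0.28 (limma-voom), and Glul with Aqp4 0.0466 (without the 3 libraries). Library totals moved the median of all genes too, from 0.0136 to 0.171 for liver minus SCN and from -0.0179 to -0.0521 for SCN sex. Leaving out 1 library or 1 replicate number gave, as lowest and highest, 0 to 3 SCN diet calls, 0 to 1 at CT4, 1 to 4 control and 2 to 5 MCD rhythms, 0 to 4 sex calls, and in liver 1 to 4 rhythms over both diets, 0 to 4 on control and 0 to 2 on MCD. In the same fits SCN diet Slc1a2 was -0.0101 to 0.15, SCN sex Slc7a10 -0.0208 to 0.0599, liver diet Fam107a -0.20 to 1.69, liver sex Gja1 -0.0211 to 0.15 and Glul with Aqp4 -0.149 to 0.0677. Between tissues, where 3 replicate numbers and 1 library were left out, the 5 calls became 3 to 4 without a number. The same 5 members and Slc7a10 (-1.80, edgeR adjusted p 0.0441) were called without liver control library a at CT8. Without a number Gfap was -0.12 to 0.10 and Fam107a -0.65 to 1.44. The cause was not tested. Depth limits Fam107a, Gfap and Slc1a3 in liver, which had means under 0.6 CPM.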

Other observations

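Genes outside the astrocyte markers were also called for diet in liver, where 46.6% of all genes were (25.3% higher, 21.2% lower on MCD). Of 13 glucocorticoid-responsive genes, 8 rose on MCD and none fell, led by Sgk1 (0.96 ± 0.14), Nfkbia (0.42 ± 0.07), Ddit4 (1.29 ± 0.27), Cdkn1a (1.66 ± 0.35) and Fkbp5 (0.72 ± 0.17). Of 17 genes of glutamate, glutamine and GABA handling, 6 rose and 5 fell. The glutamine transporter Slc1a5 (0.98 ± 0.11) and the transporter subunit Slc3a2 (0.70 ± 0.09) rose, and the serine racemase Srr (-0.33 ± 0.05), the GABA transaminase Abat (-0.69 ± 0.11) and the glutaminase Gls2 (-0.61 ± 0.09) fell.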
